A study of Mus musculus with 23 samples.

Results

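NF-κB controls its own supply: the genes for its subunits and for its inhibitors are among its targets. This section describes where p65 was bound at 7 such loci, Nfkb1, Nfkb2, Rel, Relb, Rela, Nfkbia and Tnfaip3, in mouse macrophages with and without the corepressor NCoR. Members were all peaks of the 5 deposited peak lists whose centre lay in a fixed window around each gene on mouse build mm9. They came to 131 of 58278 peaks: 5 of 702 in untreated wild type cells, 7 of 2227 in untreated knockout cells, 62 of 30021 in wild type cells after KLA and 57 of 22585 in knockout cells after KLA. None of the 2743 LXRβ peaks fell in a window.

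The p65 libraries came from peritoneal macrophages elicited with thioglycollate in male C57BL/6 mice 6 to 8 weeks old. All mice carried floxed NCoR alleles (NCoR fl/fl). The wild type was Lys M-Cre -/- and the knockout Lys M-Cre +/-, a Cre driven from a lysozyme gene active in myeloid cells. The deletion itself was not measured by these lists. Cells were untreated or had 1 h of Kdo2-Lipid A (KLA, a lipid A agonist of TLR4) at 100 ng/ml, all after serum starvation. LXRβ, a nuclear receptor for oxysterols, was mapped through a biotin tag in the macrophage line RAW264.7 after 2 h of its agonist GW3965 at 1 µM. Each group was 1 library, so differences have no replicate check and no test between groups was run. Peak lists do not measure RNA, so macrophage markers could not be checked here.

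NF-κB is a dimer of Rel-family proteins held in the cytoplasm by IκB proteins. Signals from TLR4 lead to degradation of IκBα, the product of Nfkbia, and free dimers enter the nucleus and bind κB sequences. Newly made IκBα and the ubiquitin-editing enzyme A20, the product of Tnfaip3, then limit the response. Rela encodes p65 itself, Rel and Relb encode related subunits with transactivation domains, and Nfkb1 and Nfkb2 encode precursors that are processed to p50 and p52.

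The promoters of 3 members are shown because they carry the sequence that p65 dimers recognise. They were taken from RefSeq on build GRCm38.p6, which is not the build of the peaks, so they cannot be placed against the peaks. Each is the 250 bases before the start of the gene, 5′ to 3′ on its own (minus) strand. Capitals mark matches to the κB consensus on either strand, with overlapping matches run together. Rel lies at chr11:23770970-23771219, Nfkbia at chr12:55492648-55492897 and Tnfaip3 at chr10:19015411-19015660.
Rel: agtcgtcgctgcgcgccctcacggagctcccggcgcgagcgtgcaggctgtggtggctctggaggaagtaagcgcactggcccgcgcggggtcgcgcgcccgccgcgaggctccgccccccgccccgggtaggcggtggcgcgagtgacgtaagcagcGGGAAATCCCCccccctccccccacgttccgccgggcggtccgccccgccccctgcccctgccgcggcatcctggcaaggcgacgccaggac
Nfkbia: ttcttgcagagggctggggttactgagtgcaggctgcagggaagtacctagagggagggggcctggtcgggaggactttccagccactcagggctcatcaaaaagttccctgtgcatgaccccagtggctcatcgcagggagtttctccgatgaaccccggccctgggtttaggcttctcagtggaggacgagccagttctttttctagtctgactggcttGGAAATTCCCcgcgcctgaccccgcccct
Tnfaip3: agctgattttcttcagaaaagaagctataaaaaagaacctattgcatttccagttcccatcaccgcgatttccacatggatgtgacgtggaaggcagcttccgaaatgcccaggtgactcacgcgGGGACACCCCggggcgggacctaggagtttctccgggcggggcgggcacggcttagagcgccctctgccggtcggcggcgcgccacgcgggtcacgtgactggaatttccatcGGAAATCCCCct

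The matches began 92 and 91 bases before the start of Rel, 29 bases before that of Nfkbia, and 125 and 12 bases before that of Tnfaip3. All 3 Nfkb2 promoter entries held a consensus match, and one of them held GGGAATTCCC and the overlapping GGAATTCCCC from 39 and 38 bases before the start and GGGGCTTTCC from 11 bases. Promoter entries of 5 of the 7 members were matched by symbol, for Nfkb2, Rel, Rela, Nfkbia and Tnfaip3. In the whole 300-base entries, from 250 bases before the start to 50 after it, 4 of these 5 genes held a consensus match, against 9.55% of 27025 genes in the table. Rela was the exception, and 1 of the 2 Tnfaip3 entries, the one shown, held the matches. A looser pattern, 3 G and 2 C with any 5 bases between them, includes every consensus match and was in all 5, but also in 53.5% of all genes. Of 12 other pathway genes (further IκB proteins, A20 partners and kinase or TRAF components), 10 had a promoter entry, and 5 held a consensus match: Nfkbie, Nfkbid, Bcl3, Tnip1 and Cyld. No positions on the build of the peaks were used for those 12 genes, so p65 peaks near them were not counted. A match is a description of these letters and no evidence of binding.

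Peak height is the normalised tag count deposited by the authors, that is, tags scaled to a library of 10000000. The p65 libraries were shallow, with 777228 and 786121 tags untreated and 2120392 and 1673506 tags after KLA (wild type and knockout). One tag was worth 12.9, 12.7, 4.72 and 5.98 in that order, and the lowest listed heights were 64.3, 63.6, 18.9 and 29.9. Low sites after KLA would therefore have been under the lowest listed height in untreated cells. Height intervals are exact 95% Poisson intervals of the tags, and intervals of a ratio are exact 95% intervals from both tag counts. They cover counting error only and compare libraries, not genotypes. Peaks were 132 bp wide in the wild type KLA list and 144 bp wide in the knockout KLA list, and the wild type KLA list alone was called without an input. The other p65 lists, knockout included, were called against the same wild type input. The wild type KLA list was also called with a genome size of 2000000000, against 4000000000 in the other p65 lists. Its lowest peaks had 4 tags, under its stated threshold of 5. Scaled input tags at member peaks were at most 0.9 in the lists that give them.

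After KLA the 7 windows, 750 kb in all, held tall p65 peaks at a high density per 100 kb in both genotypes. Wild type cells had 8.27 peaks per 100 kb in the windows, against 1.14 over the whole span of the chromosomes, and knockout cells had 7.60 against 0.856. The median height of member peaks was 80.2 in wild type cells, against 42.4 over the list, and 95.6 in knockout cells, against 53.8. Of wild type member peaks, 24 of 62 (38.7%, exact Clopper-Pearson interval 26.6 to 51.9) were among the tallest 10% of their list, a class that with ties held 10.7% of all peaks. In knockout cells it was 22 of 57 (38.6%, 26.0 to 52.4), against 10.5%. The windows were drawn around known NF-κB targets, so these shares describe the choice of loci as much as the data. Peaks were assigned by window only and may lie nearer to a neighbouring gene. By RefSeq gene order Rela lies between Kat5 and Sipa1, Relb between Clasrp and Clptm1, Rel between Pus10 and Papolg, Nfkb1 between Manba and Slc39a8, and Nfkb2 overlaps Psd. Nfkbia lies between Psma6 and Aldoart2, and Tnfaip3 between Perp and Olig3.

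**Figure D1:**
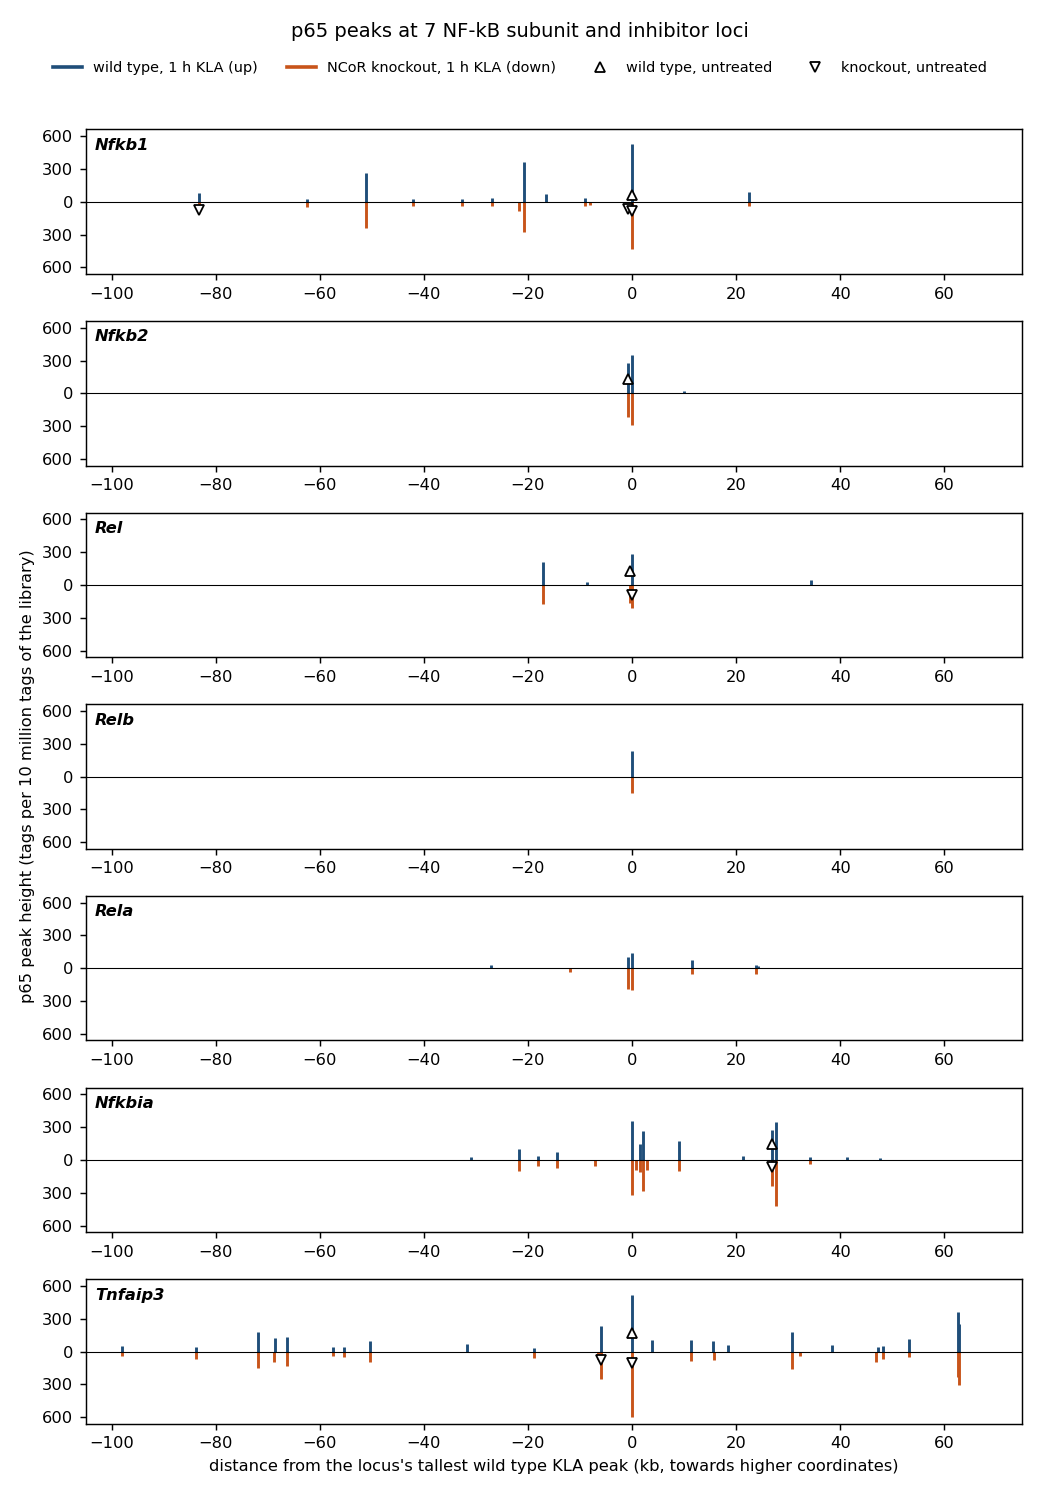
p65 peak heights (tags per 10000000 tags) by distance in kb from the tallest wild type KLA peak of each locus; bars up are wild type and bars down knockout cells after KLA, and triangles are untreated peaks (1 library each). Tnfaip3 and Nfkbia have the most peaks, with 23 and 14 in wild type cells, and Relb has 1.

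Among the subunit genes, Nfkb1 had the tallest p65 peak and, in the widest of their windows, the most peaks. Per 100 kb of window its wild type KLA peaks came to 6.88, against 10.0 at Rela. Its window (160 kb on chromosome 3) contained 11 peaks of the wild type KLA list and 12 of the knockout one. The tallest, at 135354401 to 135354533, had a height of 528.2 (435 to 636) in wild type cells, rank 15 of the 30021 peaks, and 436.2 (342 to 548) in knockout cells, rank 39 of 22585. Untreated heights at that site were 64.3 in wild type and 89.0 in knockout cells, below both KLA heights. A site at 135333676 to 135333808, 20742 bp away on the low-coordinate side, had KLA heights of 363.1 (wild type) and 280.8 (knockout). A further one at 135303273 to 135303405 had 264.1 and 245.0. The other 7 shared Nfkb1 sites were low, from 23.6 to 84.9 in wild type and from 35.9 to 83.7 in knockout cells.

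Nfkb2, the gene of the p100 precursor, had few peaks but tall ones. In its window (60 kb on chromosome 19) a site at 46379152 to 46379284 had 278.3 (212 to 359) in wild type and 215.1 (151 to 298) in knockout cells after KLA. Its neighbour at 46379881 to 46380013 had 349.0 (274 to 438) and 286.8 (211 to 380). The only other peak, at 46389846 to 46389978, was in the wild type list alone, at 23.6, the worth of 5 tags. The first of these sites was already bound in untreated wild type cells, at 128.7 (61.7 to 237), and had no untreated knockout peak.

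Rel, which encodes c-Rel, also had few peaks after KLA, 4 in wild type and 3 in knockout cells (110 kb on chromosome 11). The tallest site, at 23671413 to 23671545, reached 287.7 (220 to 370) in wild type and 209.1 (146 to 291) in knockout cells. A site 17028 bp away at 23654384 to 23654516 had 212.2 and 173.3. Beside the tallest site, knockout cells had a peak of 161.3 (106 to 235) at 23670888 to 23671032. The wild type KLA list had no peak there, its nearest being the tallest site, while the untreated wild type list had a peak of 128.7 at 23671019 to 23671121 that overlapped the knockout KLA peak. Wild type peaks of 28.3 and 42.4 elsewhere in the window had no knockout counterpart.

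Relb and Rela were at the lower end. The Relb window (70 kb on chromosome 7) had 1 peak in each KLA list, at 20214826 to 20214958, with 231.1 (171 to 306) in wild type and 149.4 (96.7 to 221) in knockout cells. At Rela, the gene of p65 itself (60 kb on chromosome 19), the tallest wild type peak stood at 141.5 (95.5 to 202), rank 1951, at 5637367 to 5637499. The knockout height there was 197.2 (136 to 277). The neighbouring site at 5636620 to 5636752 had 99.0 (61.3 to 151) in wild type and 191.2 (131 to 270) in knockout cells. A site at 5648890 to 5649022 had 75.5 and 53.8. Neither Relb nor Rela had an untreated peak in either genotype. By tallest wild type KLA peak the order of subunit genes was Nfkb1, Nfkb2, Rel, Relb and Rela. The height intervals of neighbours in that order overlapped for Nfkb2 and Rel, and for Rel and Relb, and for Relb and Rela. The Nfkb1 interval in wild type cells overlapped the Nfkb2 interval only at 435 to 438. In knockout cells Rela stood above Relb, with overlapping intervals.

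The inhibitor genes had the densest binding. In the Nfkbia window (120 kb on chromosome 12) there were 14 wild type and 13 knockout KLA peaks, most of the tall ones in 2 groups. One was a pair at 56592797 to 56592929, with 273.5 (208 to 354) in wild type and 239.0 (171 to 325) in knockout cells, and at 56593647 to 56593779, with 349.0 (274 to 438) and 424.3 (331 to 535). The other group lay on the low-coordinate side, with its tallest peak 26890 and 27724 bp from the pair. It had sites of 358.4 (wild type) and 316.7 (knockout) at 56565916 to 56566048, of 141.5 and 107.6 at 56567413 to 56567545, and of 268.8 and 286.8 at 56568013 to 56568145. Apart from both groups stood a site of 174.5 (wild type) and 101.6 (knockout) at 56574956 to 56575088. Knockout cells had 2 further peaks of 95.6 in the low-coordinate group, at 56566683 to 56566827 and 56568757 to 56568901. Their folds over the surrounding signal were 4.2 and 4.7, just above the 4-fold that the peak caller required.

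Tnfaip3 had the most peaks of the 7 windows (170 kb on chromosome 10), 23 in wild type and 21 in knockout cells. At 18735158 to 18735290 the height was 514.1 (422 to 620) in wild type and 597.5 (486 to 727) in knockout cells, ranks 17 and 7 of their lists. On the high-coordinate side, 62528 and 62852 bp away and close to the end of the window, lay a pair of sites. That at 18797675 to 18797807 had 363.1 (287 to 454) in wild type and 233.0 (166 to 319) in knockout cells, and that at 18798002 to 18798134 had 254.7 (191 to 332) and 304.7 (227 to 401). The taller member of this pair was thus a different one in each genotype, but within each library the height intervals of the pair overlapped. A site at 18729217 to 18729349, 5924 bp from the tallest on the other side, had 231.1 and 251.0.

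Before KLA, p65 peaks were listed at 9 sites in 5 of the 7 windows. In wild type cells there were 5 such peaks and in knockout cells 7, and 3 sites had both. These shared sites were the tallest Nfkb1 and Tnfaip3 sites and the Nfkbia site from 56592797. At the tallest Tnfaip3 site the untreated height was 167.3 (89.1 to 286) in wild type and 101.8 (43.9 to 201) in knockout cells, and at Nfkbia it was 141.5 (70.7 to 253) and 63.6 (20.7 to 148). The wild type height was the higher one at these 2 and the lower one at Nfkb1, and the intervals of the genotypes overlapped at all 3. The taller Nfkbia site, 850 bp away in the wild type KLA list, had no untreated peak. Knockout cells alone had untreated peaks of 76.3 at Nfkb1 (135271239 to 135271365), 63.6 at Nfkb1 (135353638 to 135353764), 89.0 at Rel (23671442 to 23671568) and 76.3 at Tnfaip3 (18729306 to 18729432). Wild type cells alone had those at Nfkb2 and Rel given above. All untreated member peaks rested on 5 to 13 tags. Over all peaks, 40.5% of the untreated wild type list overlapped an untreated knockout peak and 12.8% the other way, so 3 of 5 and 3 of 7 are too few to set against them.

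**Figure D2:**
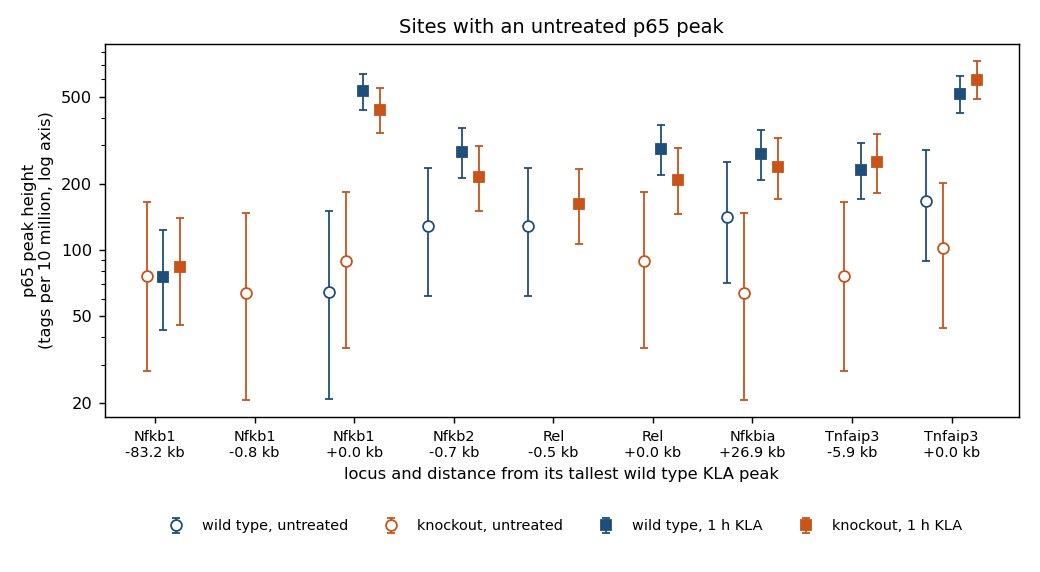
p65 peak heights (log axis, tags per 10000000 tags) at the 9 sites with an untreated peak, labelled by locus and distance from its tallest wild type KLA peak; bars are 95% Poisson intervals, open circles untreated and filled squares KLA libraries, and a missing symbol means no listed peak. KLA heights are above untreated heights of the same genotype at every site where both are listed, with the smallest gap at the first Nfkb1 site (76.3 and 83.7 in knockout cells). Heights are not per bp, and KLA peaks are wider than untreated ones.

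With KLA, deposited heights were higher at the sites listed both before and after treatment in the same genotype. KLA peaks were also wider, 132 bp against 103 bp untreated in wild type and 144 bp against 126 bp in knockout cells. The KLA to untreated ratios below are not per bp of peak, and the part of peak width in them was not tested. In wild type cells 4 of the 5 untreated member peaks overlapped a wild type KLA peak, against 75.8% of all untreated peaks, and in knockout cells 6 of 7, against 41.4%. The ratio of KLA to untreated height in wild type cells was 8.21 (3.42 to 25.8) at Nfkb1, 3.07 (1.72 to 5.96) at Tnfaip3, 2.16 (1.10 to 4.74) at Nfkb2 and 1.93 (1.00 to 4.08) at Nfkbia. All 4 were at 1.5 or more, as were 46.1% of all 532 such wild type sites. In knockout cells the ratio was 5.87 (2.87 to 14.0) at the tallest Tnfaip3 site, 4.90 (2.26 to 12.6) at the tallest Nfkb1 site, 3.76 (1.48 to 12.2) at Nfkbia, 3.29 (1.39 to 9.46) at the second Tnfaip3 site and 2.35 (1.03 to 6.27) at Rel. These 5 of 6 were at 1.5 or more, against 27.7% of all 922 such knockout sites. The sixth, at Nfkb1 from 135271239, was 1.10 (0.396 to 3.48), so no difference was detectable there at this depth. In knockout cells the untreated and KLA peaks at Nfkbia and at the second Tnfaip3 site were centred more than 100 bp apart. Those 2 ratios may thus compare neighbouring positions. With centres at most 100 bp apart, or a reciprocal overlap of 50%, 4 of 57 knockout member peaks (7.02%) matched an untreated peak. Seen from the KLA lists, 4 of 62 wild type member peaks (6.45%, 1.79 to 15.7) overlapped an untreated peak, against 1.77% of all, and 6 of 57 knockout member peaks (10.5%, 3.96 to 21.5), against 4.08%. The rest had no untreated peak, among them all Rela sites and the Relb site.

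Most p65 sites of these loci were listed in both genotypes after KLA. Of wild type peaks, 45 of 62 (72.6%, 59.8 to 83.1) overlapped a knockout peak, against 54.0% of the whole list. Of knockout peaks, 45 of 57 (78.9%, 66.1 to 88.6) overlapped a wild type peak, against 71.7%. Member peaks were taller than the lists. Among peaks of 10 or more tags, 33 of 40 wild type member peaks (82.5%, 67.2 to 92.7) were shared, against 81.3% of all such peaks, and 31 of 39 knockout member peaks (79.5%, 63.5 to 90.7), against 91.7%. With this minimum the wild type share of the loci was near that of the list, and the knockout share was lower than that of its list, with an interval that did not reach it. That interval takes peaks as independent, though some lie in the same group of a locus, so it is no test against the list. Of the 8 knockout peaks with 10 or more tags that were not shared, 7 had a wild type peak centred within 1000 bp. Among them were the 2 of 95.6 at Nfkbia and the Rel peak beside the tallest site. The share over the whole list with this tag minimum is not given here, so the 7 of 8 cannot be set against it. With no tag minimum it was 31.5% of all knockout peaks that overlapped no wild type peak.

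At the 45 shared sites the median ratio of knockout to wild type height was 0.986 (0.874 to 1.13, by order statistics), with a range from 0.422 to 2.03. Over all 16203 shared sites it was 1.09. The knockout height was higher at 22 sites (48.9%, 33.7 to 64.2) and lower at 23, against 57.8% higher and 42.0% lower over all shared sites. It was 1.5 times or more the wild type height at 7 of 45 (15.6%, 6.49 to 29.5), against 19.7% of all shared sites, and 1/1.5 or less at 5 (11.1%, 3.71 to 24.1), against 9.98%. Both intervals held the share of the whole list. No knockout peak was listed under 29.9, so shared sites below that in wild type cells could only be higher in knockout cells. Most of the 7 sites had a wild type height of 23.6. Median wild type height was 80.2 at the loci and 42.4 over the list, and the comparisons with the list were not matched on height. Per bp of peak, which allows for the wider knockout peaks, the median ratio was 0.904 at the loci and 0.996 over all shared sites.

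**Figure D3:**
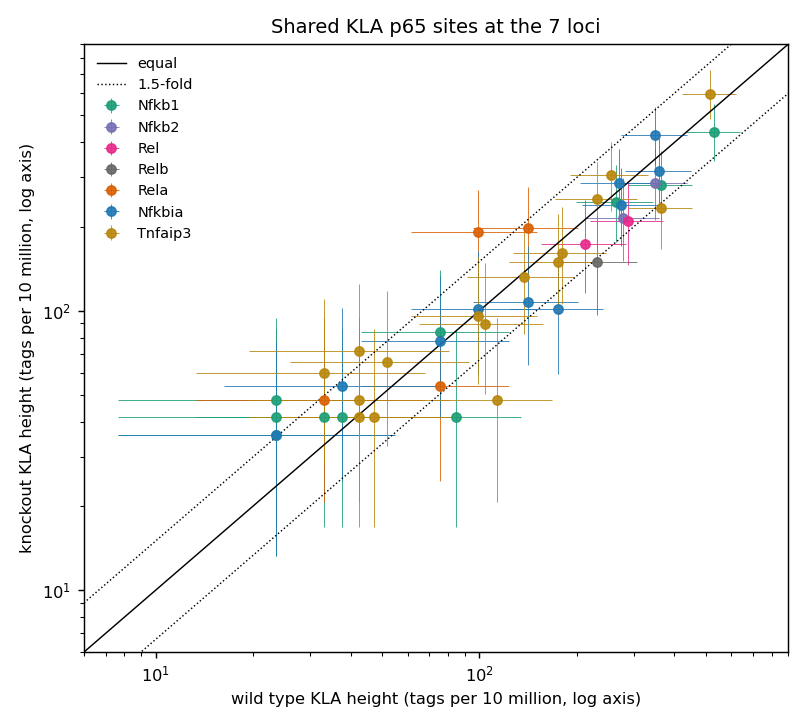
Knockout against wild type p65 height after KLA at the 45 shared sites of the 7 loci (log axes, tags per 10000000 tags, 1 library per genotype), coloured by locus, with 95% Poisson intervals; the solid line marks equal heights and the dotted lines 1.5-fold. Most sites lie between the dotted lines, and 7 lie at or above the upper and 5 at or below the lower one.

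Single sites seldom had a ratio interval that excluded 1. Of 45 intervals, 1 lay above 1 (2.22%, 0.0562 to 11.8), against 1.81% of all shared sites, and 2 below it (4.44%, 0.543 to 15.1), against 1.28%. Both shares of the whole list lay within these limits. Member peaks were taller than the list, and more tags give narrower ratio intervals, so such shares were not matched on height. The interval above 1 was that of the Rela site from 5636620, with a ratio of 1.93 (1.08 to 3.52). The others were at Tnfaip3, with 0.642 (0.425 to 0.955) at the site from 18797675 and 0.422 (0.164 to 0.972) at the site from 18788235, where heights were 113.2 and 47.8. Per bp no interval lay above 1, against 1.05% of all, and 4 lay below it (8.89%, 2.48 to 21.2), against 2.26%. The limits 2.48 to 21.2 did not hold the share of the list, again without matching on height. These 4 intervals were at the same 2 Tnfaip3 sites, at Relb (0.593) and at the Nfkbia site from 56574956 (0.534). At 2-fold or more, 1 site was higher in knockout cells, against 6.28% of all shared sites, and 2 were lower, against 2.43%. They were the Tnfaip3 site of 0.422, an Nfkb1 site from 135376789 with 84.9 and 41.8 (0.492, 0.174 to 1.24) and an Nfkb1 site from 135291833 with 23.6 and 47.8 (2.03, 0.585 to 7.88). The last 2 had intervals that held 1.

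Heights summed over the shared sites of a locus are led by its few tall peaks. Peaks that overlapped none of the other genotype did not enter. At Rel this left 2 sites, without the knockout peak of 161.3 and the wild type peaks of 28.3 and 42.4. Height in knockout over height in wild type cells came to 0.969 (0.829 to 1.13) at Nfkbia, with summed heights of 1745 and 1802, and 0.984 (0.861 to 1.12) at Tnfaip3, with 2390 and 2429. Among subunit genes it was 0.890 (0.745 to 1.06) at Nfkb1, 0.800 (0.602 to 1.06) at Nfkb2, 0.765 (0.552 to 1.05) at Rel and 0.646 (0.383 to 1.07) at Relb. These 6 intervals held 1. Rela had the only sum above 1, with 490 in knockout and 349 in wild type cells, a ratio of 1.40 (1.01 to 1.95). Per bp of peak Rela came to 1.29 (0.928 to 1.79), an interval that held 1, while those of Nfkb1 (0.682 to 0.973), Nfkb2 (0.551 to 0.971), Rel (0.506 to 0.965) and Relb (0.351 to 0.978) then lay below 1. Over all shared sites of the lists the summed ratio was 1.04 (1.03 to 1.04), and the interval per bp was 0.944 to 0.955. Which intervals held 1 thus depends on whether the wider knockout peaks are allowed for. Medians over single sites, which weigh low and tall peaks alike, went the other way at Nfkb1 and Nfkbia. At Nfkb1 the median ratio was 1.11 (0.773 to 1.77; per bp 1.02), with 6 of 10 sites higher in knockout cells. At Nfkbia it was 1.03 (0.760 to 1.43; per bp 0.942), also with 6 of 10 higher. No knockout peak was listed under 29.9, so a shared site below that in wild type cells could only be higher in knockout cells. Both loci had shared sites of 23.6 in wild type cells. Part of these medians and counts was thus fixed by the lowest listed height. The median was 0.976 (0.863 to 1.20) over 16 sites at Tnfaip3 and 1.42 over 4 at Rela. Differences between loci were not tested.

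**Figure D4:**
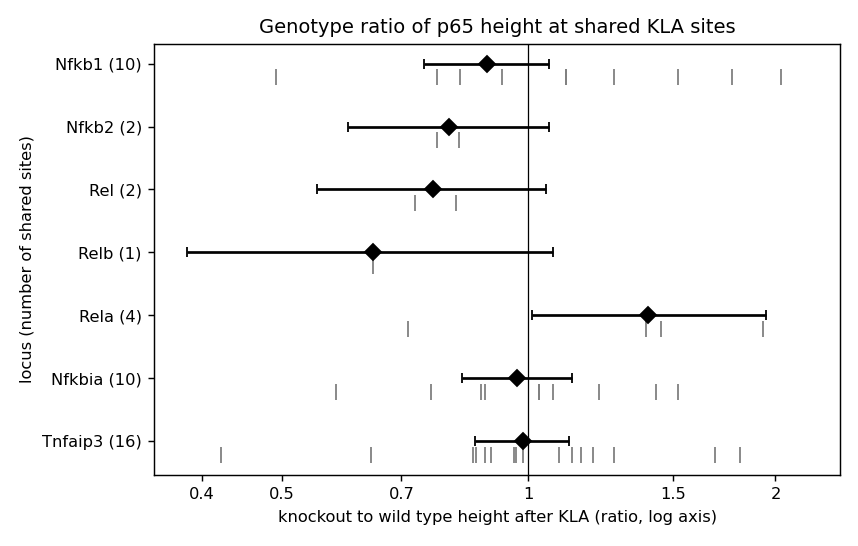
Knockout to wild type ratio of p65 height after KLA (log axis) by locus; diamonds are ratios of heights summed over shared sites with exact 95% intervals from tag counts, and grey ticks below are single sites. Rela is the locus with a summed ratio over 1 (1.40), and Relb has the lowest (0.646, 1 site).

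Some sites were listed in 1 genotype only after KLA, 17 in wild type (27.4% of its member peaks, against 46.0% of the list) and 12 in knockout cells (21.1%, against 28.3%). Several of the 17 had heights under 29.9, the lowest height in the knockout list, and could not be listed there at equal height. Of 51 wild type member peaks at or above 29.9, 41 (80.4%, 66.9 to 90.2) overlapped a knockout peak. The whole-list share at this minimum is not given here. A peak of the other genotype was centred within 1000 bp of 4 of the 17 (23.5%, 6.81 to 49.9), against 19.4% of all such wild type peaks. The same held for 7 of the 12 (58.3%, 27.7 to 84.8), against 31.5% of all such knockout peaks. The tallest was the knockout Rel peak of 161.3 described above. At Tnfaip3 the tallest was a wild type peak of 127.3 at 18666511 to 18666643, and a knockout peak of 95.6 was centred 172 bp away. The tallest with no such neighbour was a wild type Tnfaip3 peak of 108.5 (68.8 to 163) at 18738897 to 18739029, with the nearest knockout peak 3714 bp away. At Nfkb1 the tallest was a knockout peak of 89.6 at 135332597 to 135332741, which stood 1073 bp from the wild type peak of 363.1. At Rela the tallest such site was a knockout peak of 29.9, the lowest height that list holds.

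Neighbouring peaks of a list, those with another peak centred within 1 kb, made up 12 of 62 wild type member peaks after KLA (19.4%, 10.4 to 31.4), against 17.6% of the list. In knockout cells it was 19 of 57 (33.3%, 21.4 to 47.1), against 14.8%. Of these 19, 5 were the Nfkbia peaks from 56565904 to 56568901, where knockout cells had the 2 additional peaks of 95.6.

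LXRβ was not listed at any of the 7 loci in RAW264.7 cells. No member peak overlapped an LXRβ peak, 0 of 62 in wild type and 0 of 57 in knockout cells after KLA, against 3.87% and 4.23% of all KLA peaks. The upper exact limits of these shares were 5.78% and 6.27%, so a share as in the whole list was not excluded by the counts. The LXRβ peak nearest to the tallest wild type KLA peak lay 64.0 kb away at Relb (height 28.2), 65.4 kb at Rela, 66.4 kb at Nfkbia, 79.1 kb at Tnfaip3, 92.0 kb at Rel, 173 kb at Nfkb2 and 3993 kb at Nfkb1. These cells are not the primary macrophages, so positions can be compared but not binding in the same cell.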

How the data were processed

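Peak lists of 5 ChIP-seq libraries were used, of the 23 samples of the series; groups came from sample titles. The submitters' processing notes name Bowtie 0.12.7, mm9 and HOMER, whose version is not given in the sources used here. Each library had its own peak calling at a false discovery rate of 0.001, 4-fold over the surrounding 10000 bp and, except in the wild type KLA list, 4-fold over input, with at most 1 tag per bp, per the file headers. The deposited signal is the tag count per 10000000 tags of the library, and input tags were scaled by the authors. Fold over the surroundings is a deposited ratio, computed by the authors. The deposited findPeaks score equals the recovered tags in the other p65 lists but differed at 13561 wild type KLA peaks; it entered 1 alternative.

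Members, lists and windows were chosen with earlier results of these data known. Python 3.11.15 with scipy 1.17.1, pandas 2.3.3 and numpy 2.4.6 was used. Lists were compared by overlap of 1 bp or more, nearest centre first. A site is a run of overlapping p65 peaks. Tags were recovered from the heights. Overlap and interval code was tested on simulated lists. Named were, per locus, the 3 sites tallest after KLA, sites with an untreated peak, the tallest site of 1 genotype, and sites beyond 2-fold; further sites were named after their values were seen. Alternatives varied the overlap, the tag minimum, window size, scaling and fold. The κB consensus was searched on both strands. GRO-seq, histone and input samples were not analysed here.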

Additional observations from a re-analysis of the deposited data

How the results depend on the processing

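No paired analysis was possible because each group had 1 library, and no library could be left out. Most values stayed within their counting intervals or within 1.5 times of the count under the alternatives run. The exceptions were these. With a reciprocal overlap of 50%, the shared share was 59.7% of wild type and 64.9% of knockout member peaks. With 10 or more tags, wild type member peaks numbered 40 in place of 62. With windows widened by 20 kb, 1 LXRβ peak fell in them. At 2-fold, 1 shared site was higher and 2 were lower in knockout cells. For neighbouring peaks, chosen after seeing the data, shares within 500 bp were 6.45% (wild type) and 3.51% (knockout), and within 2 kb 47.4% (knockout). Whole-list shares under the reciprocal overlap and these distances are not given here. The changes in share thus cannot be read as particular to the loci. An untreated p65 peak needed 5 tags, worth 64.3 and 63.6 in the untreated lists (wild type and knockout), so lower untreated sites could not be listed.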

Other observations

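Some p65 peaks of these loci stood in pairs, a feature noticed in the data and described here with no test. In wild type cells after KLA there were 6 pairs centred within 1 kb of each other. They lay 729 bp apart at Nfkb2 (278.3 and 349.0), 747 and 296 bp at Rela (99.0 and 141.5; 33.0 and 23.6), 850 and 600 bp at Nfkbia (273.5 and 349.0; 141.5 and 268.8) and 327 bp at the far end of the Tnfaip3 window (363.1 and 254.7). The knockout list had 5 of these, all but the low Rela pair, at 749, 694, 878, 590 and 319 bp. Among member peaks in the tallest 10% of their list, 9 of 24 in wild type (37.5%, exact Clopper-Pearson interval 18.8 to 59.4) and 13 of 22 in knockout cells (59.1%, 36.4 to 79.3) had another peak of the list centred within 1 kb, against 24.0% and 21.5% of all peaks of that class. The wild type interval held the share of the list. The tallest wild type peaks of Nfkb1 (528.2), Tnfaip3 (514.1) and Nfkbia (358.4) had no such neighbour in that list. Peaks of a pair are counted once each, so they are not independent. At Rel the spacing was 503 bp in knockout cells (161.3 and 209.1), and the wild type KLA list had 1 peak there. The knockout list was called with an input and the wild type list without one, and with different genome sizes. The part of these settings in the difference was not tested.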
